A study of Homo sapiens with 12 samples.

Results

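The AP-1 factors described here are 8 genes of the FOS and JUN families and their relative ATF3, namely FOS, FOSB, FOSL1, FOSL2, JUN, JUNB, JUND and ATF3. They were chosen by name as rows of the gene count table, which holds 26364 genes, with earlier results of these data already known. Their mRNA was followed in HepG2 cells, a human hepatocellular carcinoma line that is a standard model of the insulin-responsive hepatocyte, at 0, 5, 10, 30 and 240 min after insulin stimulation, with 2 replicates at each time. HepG2 is a tumor line and a single genotype, and the labels set the groups apart by the time after insulin stimulation alone. The labels describe 16 h in EMEM and then insulin at 3 nM in EMEM with BSA, and they repeat that text, with an exposure of 5 min, for every RNA library, the 0 min libraries included. The times used here are those of the sample titles, in minutes after insulin stimulation, and 0 min is called before insulin. Whether insulin stayed in the medium until each time is not stated. The series holds no library kept without insulin until a later time. A change against 0 min is therefore a change over time, in which insulin cannot be told apart from elapsed time or the change of medium. A single library of insulin receptor (IR) ChIP-seq from the same cell line, with 3 nM insulin in its label, gave the IR peaks set beside the genes. The labels number the replicates without saying whether they were separate cultures. The paper states that the RNA-seq was a single experiment with biologically independent samples, so p-values measure the spread between libraries within that experiment.

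AP-1 is a dimer of basic leucine zipper proteins that binds the sequence TGACTCA, or the related TGACGTCA when ATF or CREB proteins take part. JUN proteins pair with each other or with FOS proteins, whereas FOS proteins need a JUN partner to form a stable dimer. FOS, FOSB, JUN, JUNB and ATF3 are textbook immediate early genes, transcribed within minutes of a growth factor without new protein synthesis, while FOSL1 and FOSL2 are known as later and longer-lived relatives and JUND as constitutively expressed. In liver, AP-1 is known from regeneration after hepatectomy and from the response to growth factors, cytokines and stress.

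At 240 min after insulin stimulation, 6 of the 8 mRNAs rose (FOS, FOSB, FOSL1, JUN, JUNB and ATF3) and FOSL2 fell, while JUND did not pass the test. At that time 41.0% of all 13852 genes tested were called, 20.6% higher and 20.4% lower. With counts scaled by spike-in RNAs 5 of the 8 members were called at 240 min, beside 1059 of 13852 genes, and FOSL2 and JUNB did not pass. Without 240 min replicate 1 the FOSB change was 0.81 on the log2 scale, in place of 1.75. At 30 min the single member past the threshold was FOS, 2.65-fold above 0 min, beside 0.332% of all genes, and that call depended on the test and on each of 3 libraries. At 5 and 10 min no member passed. Between 0 and 240 min the leading FOS family transcript changed from FOSL2 by a wide margin to FOSL1 and FOSL2 at overlapping levels, and the share of JUN in the JUN family went from 19.2% to 33.4%.

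Promoter sequences are shown for 6 members, 5 that rose at 240 min and JUND. They hold motifs that the TATA-binding protein and AP-1 or ATF proteins are known to bind. The window of FOSL2, which fell, also holds such a motif and is not shown, so the windows shown are not all that hold one. Each window is taken from RefSeq on GRCh38.p14 and runs from 250 bases before the start to 50 bases after it, 5′ to 3′ on the strand of the gene. Capitals mark TATAAA, the TATA box consensus, TGACGTCA, or TGACATCA, a variant of TGACGTCA.
FOS promoter, chr14:75278578-75278877, plus strand: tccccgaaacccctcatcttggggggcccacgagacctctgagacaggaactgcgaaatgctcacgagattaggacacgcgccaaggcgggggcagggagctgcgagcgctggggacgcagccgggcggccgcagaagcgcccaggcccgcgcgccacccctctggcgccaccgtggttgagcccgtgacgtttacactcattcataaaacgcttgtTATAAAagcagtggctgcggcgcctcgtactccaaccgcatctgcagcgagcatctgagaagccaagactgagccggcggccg
FOSB promoter, chr19:45467746-45468045, plus strand: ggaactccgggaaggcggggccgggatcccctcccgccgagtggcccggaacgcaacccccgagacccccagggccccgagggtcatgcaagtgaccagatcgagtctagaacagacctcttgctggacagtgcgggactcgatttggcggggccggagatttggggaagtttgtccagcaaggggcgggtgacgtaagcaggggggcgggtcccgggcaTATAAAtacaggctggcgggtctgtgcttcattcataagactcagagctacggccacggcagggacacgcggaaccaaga
JUNB promoter, chr19:12791236-12791535, plus strand: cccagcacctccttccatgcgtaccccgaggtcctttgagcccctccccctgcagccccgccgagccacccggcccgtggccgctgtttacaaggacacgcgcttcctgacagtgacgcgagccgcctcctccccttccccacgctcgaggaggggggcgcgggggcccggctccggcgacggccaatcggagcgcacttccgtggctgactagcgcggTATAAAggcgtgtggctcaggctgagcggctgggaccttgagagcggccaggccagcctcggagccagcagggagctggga
JUN promoter, chr1:58783998-58784297, minus strand: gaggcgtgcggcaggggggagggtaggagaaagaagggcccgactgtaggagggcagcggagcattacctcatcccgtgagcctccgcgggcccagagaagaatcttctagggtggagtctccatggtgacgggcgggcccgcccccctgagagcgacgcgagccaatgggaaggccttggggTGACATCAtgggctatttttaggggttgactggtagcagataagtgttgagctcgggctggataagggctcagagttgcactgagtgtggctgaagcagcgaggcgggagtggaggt
ATF3 promoter (the upstream of its windows), chr1:212565157-212565456, plus strand: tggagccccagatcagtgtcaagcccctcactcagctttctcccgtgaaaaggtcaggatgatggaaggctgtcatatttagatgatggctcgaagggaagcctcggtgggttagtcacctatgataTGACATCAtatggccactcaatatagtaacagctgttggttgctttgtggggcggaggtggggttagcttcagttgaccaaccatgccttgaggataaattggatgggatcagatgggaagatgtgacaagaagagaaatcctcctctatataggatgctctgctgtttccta
JUND promoter, chr19:18281573-18281872, minus strand: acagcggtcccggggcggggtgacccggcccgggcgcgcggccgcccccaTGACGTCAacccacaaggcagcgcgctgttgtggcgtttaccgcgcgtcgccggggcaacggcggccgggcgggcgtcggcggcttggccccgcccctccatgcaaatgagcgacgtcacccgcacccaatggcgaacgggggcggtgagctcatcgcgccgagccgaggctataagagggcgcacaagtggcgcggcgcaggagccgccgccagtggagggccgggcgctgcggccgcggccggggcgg
TATAAA began at -33 in FOS, -30 in FOSB and -31 in JUNB, counted from the start. This motif was present in 11.5% of the 35116 RefSeq windows of the same length. The downstream ATF3 window, which is not shown, held it at -230. TGACATCA began at -67 in JUN and at -123 in the upstream ATF3 window, and 2.61% of windows held it. TGACGTCA began at -200 in JUND, a motif found in 1.85% of windows. The FOSL2 window, not shown, held TGACTCA at 5 bases after the start, a motif of 4.95% of windows. Both strands were searched, and the motifs do not overlap one another in these windows. The CArG box, to which serum response factor binds, was not matched in the windows of the 7 members other than FOSL1, against 1.29% of all windows, and GGGCGG was in 45.0% of all windows. Only exact matches were taken. Sequence more than 250 bases before the start was not searched, so a CArG box there would be missed.

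Libraries held 18347109 to 45005769 reads counted on genes, and all 8 members passed the filter on low counts, as did 13852 genes in all. The members spanned a wide range of abundance, which set the precision of each. FOSB had 17 to 102 counts in a library and FOS 25 to 124, whereas JUND had 1954 to 4745. Spike-in RNAs took 1.59% to 2.36% of the counts. Of 8 liver cell markers all were found, at a summed 37500 to 47700 TPM, the measure of transcripts scaled by length and library, whereas 4 fibroblast markers summed to 4.66 to 6.52 TPM, 3 endothelial markers to 0.958 to 2.07 TPM and 3 blood cell markers to 48.7 to 60.3 TPM, where 2 of the 3 were at 0 in every library. At 240 min 1 of the 8 liver cell markers passed the threshold, HNF4A, a liver transcription factor, which was higher (log2 fold change 0.30). The median of the 8 went the other way, at -0.10, against -0.003 for all genes tested. Of 2 tested fibroblast markers, PDGFRB was lower (-0.53), while COL1A1 did not pass (0.14). So the lists do not show a common shift of liver cell markers upward. HNF4A and PDGFRB were picked with the results already known. Their part in the results below was not tested. In bulk RNA a change in every cell and a change in the share of responding cells cannot be told apart.

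**Figure D1:**
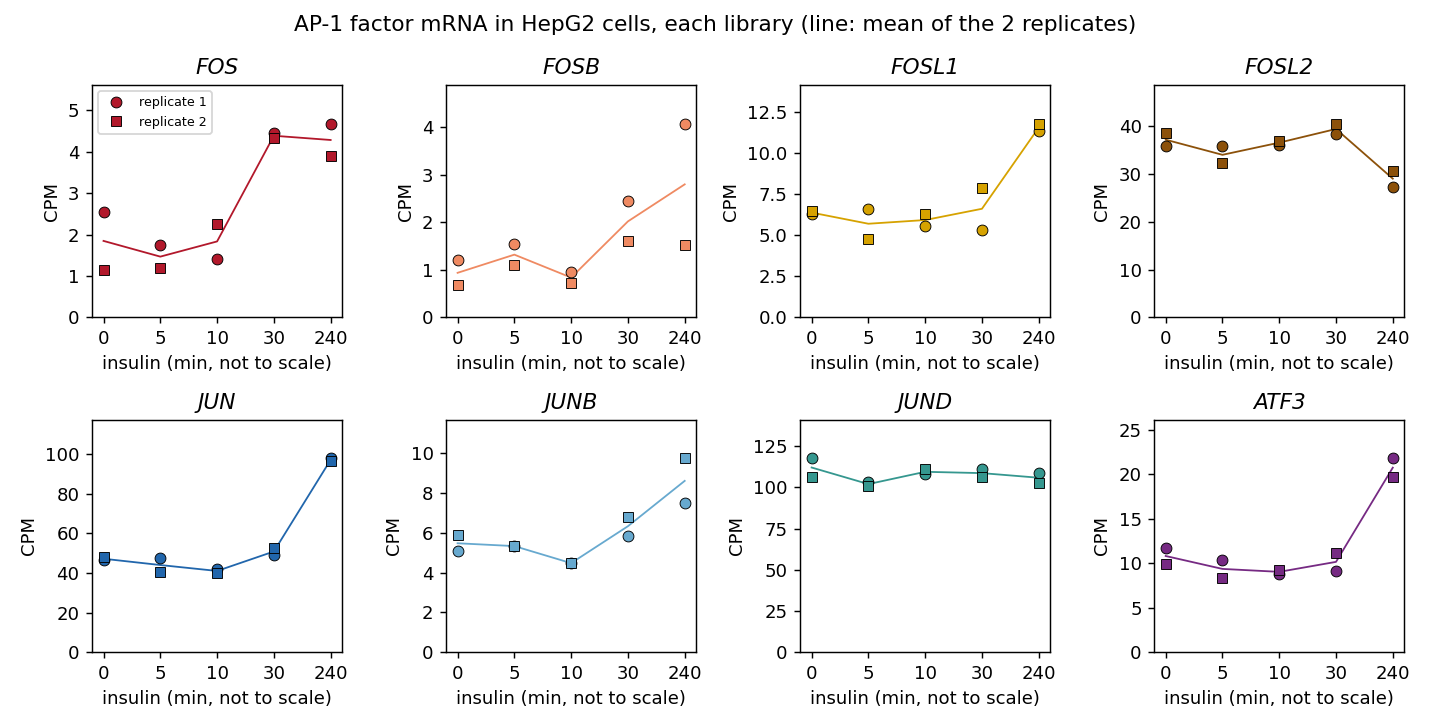
CPM (counts scaled to the normalized library size, vertical axis, from 0) of the 8 AP-1 mRNAs in every library against minutes after insulin stimulation (horizontal axis, not to scale). Circles are replicate 1 and squares replicate 2, with a line through the mean of both. FOS rose from 1.15 to 2.55 CPM at 0 min to 4.32 to 4.45 CPM at 30 min, while JUN and ATF3 lay above all their earlier libraries at 240 min and JUND stayed between 100.9 and 117.5 CPM throughout.

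FOS, the founding member of the family, encodes the JUN partner that is classically induced by serum. Its level was 2.55 and 1.15 CPM before insulin, 1.74 and 1.20 after 5 min, 1.41 and 2.26 after 10 min, 4.45 and 4.32 after 30 min and 4.68 and 3.89 after 240 min. The 4 libraries of 30 and 240 min lay above all 6 earlier ones, and the replicates at 0 min spanned the values of 5 and 10 min. The lower of the 0 min values came from the deepest library, replicate 2, with 51 FOS counts among 45005769 gene counts. Replicate 1 had 55 among 21692103. Mean CPM was 1.85 at 0 min and 4.39 at 30 min. The fitted log2 fold change was 1.40 at 30 min (standard error 0.266, 95% interval 0.85 to 1.96, adjusted p = 0.0218) and 1.38 at 240 min (standard error 0.270, adjusted p = 4.27e-04), both from the quasi-likelihood test of edgeR, adjusted by Benjamini-Hochberg over all genes tested. Between 30 and 240 min FOS differed by -0.024 on the log2 scale (95% interval -0.53 to 0.48, adjusted p = 0.950). The replicate libraries that decided the call at 30 min were 0 min replicate 2 (without it 0.78, adjusted p = 0.338), 30 min replicate 1 (1.38, 0.101) and 30 min replicate 2 (1.42, 0.122), and limma on log2 TPM values gave adjusted p of 0.540 to 0.627. At 240 min FOS still passed without 0 min replicate 2, with a smaller change of 0.76.

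FOSB encodes a close relative of FOS and was the least abundant of the 8 mRNAs. It stood at 1.21 and 0.67 CPM before insulin, 1.54 and 1.10 after 5 min, 0.96 and 0.72 after 10 min, 2.44 and 1.60 after 30 min and 4.08 and 1.52 after 240 min. The replicates at 240 min differed from each other by more than the means of any earlier pair of times, and replicate 2 at 240 min lay below replicate 1 at 5 min. FOSB was higher at 240 min than at 0 min by 1.75 on the log2 scale (standard error 0.370, 95% interval 0.98 to 2.53, adjusted p = 8.45e-04, edgeR). That call rested on 240 min replicate 1, without which the change was 0.81 (adjusted p = 0.153), and with limma on log2(TPM + 1) the change was 0.78, lost for genes of a mean TPM of at least 1 (adjusted p = 0.0658). At 30 min FOSB differed by 1.26 on the log2 scale (standard error 0.389, adjusted p = 0.320), and of the settings tried it passed only where low counts were not filtered (adjusted p = 2.05e-04).

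The FOS-related antigens FOSL1 and FOSL2, which lack the strong transactivation domain of FOS, moved in opposite directions at 240 min. FOSL1 was at 6.26 and 6.49 CPM before insulin, 6.61 and 4.79 after 5 min, 5.54 and 6.30 after 10 min, 5.35 and 7.87 after 30 min and 11.3 and 11.8 after 240 min. Both libraries at 240 min lay above all 8 others, and among those 8 the times overlapped. FOSL1 rose by 0.85 on the log2 scale (standard error 0.148, 1.80-fold, adjusted p = 1.37e-04, edgeR). FOSL2 was at 35.8 and 38.6 CPM before insulin, 35.8 and 32.3 after 5 min, 36.2 and 37.01 after 10 min, 38.3 and 40.6 after 30 min and 27.4 and 30.8 after 240 min. Its libraries at 240 min were the lowest of the 10, and the log2 fold change against 0 min was -0.37 (standard error 0.0735, 95% interval -0.52 to -0.22, adjusted p = 4.97e-04, edgeR). Scaled by the spike-in RNAs, the FOSL2 difference was -0.48 with an adjusted p of 0.105.

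JUN, the strongest activator among the JUN proteins, had the smallest p of the 8 at 240 min. Its replicates were at 46.4 and 48.0 CPM before insulin, 47.6 and 40.4 after 5 min, 42.0 and 40.0 after 10 min, 48.9 and 52.8 after 30 min and 97.8 and 96.4 after 240 min. The 240 min libraries stood clear of the rest, with replicates close to each other. JUN rose 2.05-fold from 0 to 240 min, by 1.04 on the log2 scale (standard error 0.0645, 95% interval 0.90 to 1.17, adjusted p = 8.20e-10, edgeR), and over 10 other settings the change ran from 0.92 to 1.08 with an adjusted p of at most 1.53e-04. At 10 min both replicates were below those of 0 min by 0.20 on the log2 scale, which did not pass (adjusted p = 0.711).

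JUNB, which activates fewer targets than JUN and can oppose it, was at 5.06 and 5.88 CPM before insulin, 5.34 and 5.31 after 5 min, 4.47 and 4.47 after 10 min, 5.85 and 6.80 after 30 min and 7.48 and 9.73 after 240 min. The libraries at 240 min were the highest and those at 10 min the lowest. JUNB rose by 0.61 on the log2 scale at 240 min (standard error 0.137, 1.53-fold, adjusted p = 0.00140, edgeR), and with spike-in scaling the change of 0.51 had an adjusted p of 0.153. JUND, the JUN protein associated with resting cells, was at 117.5 and 106.5 CPM before insulin, 103.0 and 100.9 after 5 min, 108.0 and 110.8 after 10 min, 110.9 and 106.3 after 30 min and 108.9 and 102.7 after 240 min. All 5 times lay in 1 narrow band, although both libraries at 5 min were below both at 0 min. The log2 fold change at 240 min was -0.076, with a 95% interval of -0.19 to 0.037 (adjusted p = 0.278, edgeR), so a rise of the size seen in JUN lies outside that interval.

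ATF3, a stress-inducible factor that pairs with JUN proteins and is often a repressor, was at 11.7 and 9.90 CPM before insulin, 10.4 and 8.33 after 5 min, 8.83 and 9.24 after 10 min, 9.15 and 11.2 after 30 min and 21.8 and 19.7 after 240 min. The first 4 times lay between 8.33 and 11.7 CPM, and both libraries at 240 min stood above them. ATF3 rose 1.96-fold at 240 min, by 0.97 on the log2 scale (standard error 0.113, 95% interval 0.73 to 1.20, adjusted p = 1.59e-06, edgeR). It passed under each of 10 other settings, with an adjusted p of at most 0.00228.

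**Figure D2:**
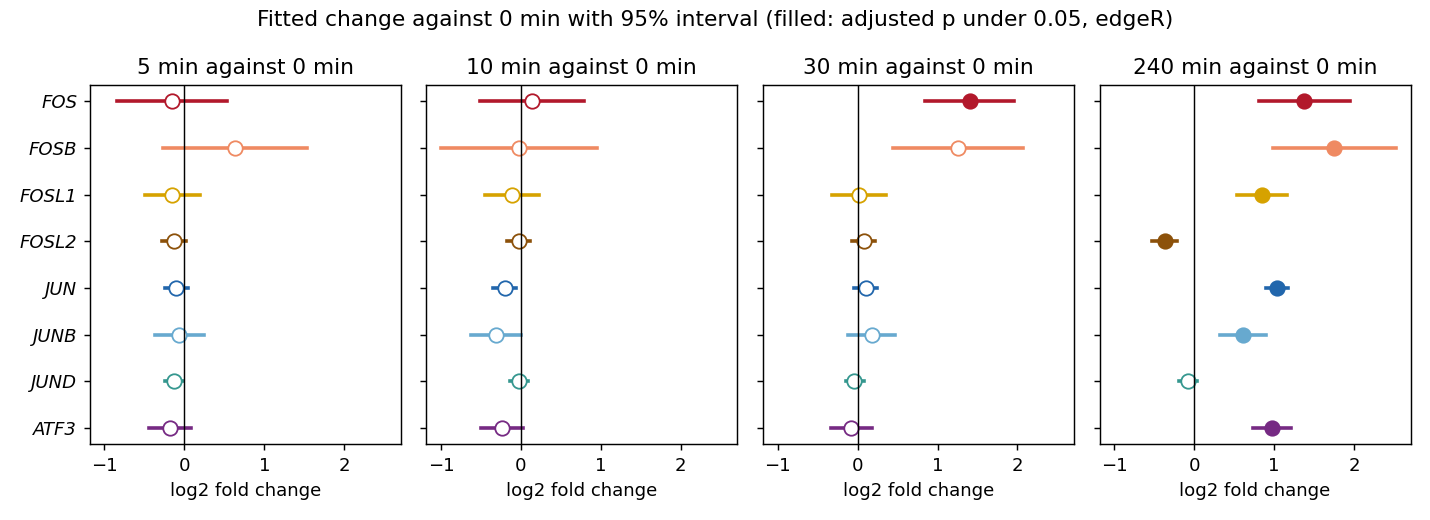
Fitted log2 fold change against 0 min (horizontal axis) of each AP-1 mRNA at 5, 10, 30 and 240 min, with bars for the 95% interval of edgeR's model and filled points where the adjusted p was under 0.05. FOS at 30 min (1.40) and 7 of the 8 members at 240 min are filled, with FOSL2 (-0.37) on the lower side, and the bars of FOS and FOSB are the widest.

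Many genes beside the members moved at 240 min. At 240 min 7 of the 8 members were called and 41.0% of the 13852 genes tested were called. With spike-in scaling in place of TMM, the genes called numbered 1059 of 13852 at 240 against 0 min, where TMM gave 5676, and 917 at 240 against 30 min, where TMM gave 5297. The median log2 fold change of the 8 members was 0.91, and that of all genes tested was -0.003. By size, the absolute change of FOSB exceeded that of 99.7% of genes tested, FOS 99.0%, JUN 97.5%, ATF3 96.9%, FOSL1 95.2%, JUNB 89.3%, FOSL2 73.6% and JUND 20.6%. By p of edgeR the order was another, with JUN at rank 28 of 13852, ATF3 551, FOSL1 1627, FOS 2047, FOSL2 2108, FOSB 2354, JUNB 2637 and JUND 8726. At 30 min 1 of the 8 members was called higher, against 0.188% of genes called higher and 0.332% in either direction, and the medians were 0.088 for the members and -0.005 for all genes. Both FOS and FOSB exceeded 99.9% of genes in absolute change at 30 min. By p of edgeR FOS ranked 27 and FOSB 187 of 13852 at that time, and FOSB did not pass (adjusted p = 0.320). All these comparisons share the 0 min libraries. The replicates of 0 min and of the later time did not overlap for 1 member at 5 min, 3 at 10 min, 3 at 30 min and 7 at 240 min, and the same held for 48.4%, 37.2%, 38.3% and 69.7% of genes tested.

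At 5 min 0 of the 8 members were called by edgeR, as were 0.00% of all genes tested. Without adjustment, 1 member, JUND (log2 fold change -0.13), had a p under 0.05, against 14.3% of all genes. At 10 min 0 members were called against 0.137% of genes, and 2 had an unadjusted p under 0.05, JUN and JUNB, against 5.13% of genes. DESeq2 also called 0 members at both times. With 2 replicates and the low counts of FOS and FOSB, the 95% intervals at 10 min ran from -0.52 to 0.78 for FOS and from -1.01 to 0.95 for FOSB.

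Later times were also compared with each other. From 30 to 240 min 4 members rose and 1 fell, against 38.2% of genes called, 19.8% higher and 18.4% lower. ATF3 rose by 1.05 on the log2 scale (adjusted p = 1.04e-06), JUN by 0.94 (2.78e-09), FOSL1 by 0.83 (2.69e-04) and JUNB by 0.44 (0.0184), and FOSL2 fell by 0.44 (9.68e-05), all with edgeR. The JUNB call was lost at a like size with DESeq2 (0.43, adjusted p = 0.0724), spike-in scaling (0.45, 0.270) and limma on log2(TPM + 0.1) (0.45, 0.0508), and at a smaller size without 30 min replicate 1 (0.32, 0.180) and without 240 min replicate 2 (0.25, 0.238). The FOSL2 call was lost with spike-in scaling (-0.43, 0.188). Without 30 min replicate 1 the FOSL1 difference was 0.55 (adjusted p = 0.0153). FOSB differed by 0.50 between these times (adjusted p = 0.257), by 0.98 without 240 min replicate 2 (adjusted p = 0.0125) and by -0.44 without 240 min replicate 1 (adjusted p = 0.428), a change of sign. From 10 to 30 min 0 members were called, against 0.00722% of genes, which is a single gene, EGR1, although 4 members had an unadjusted p under 0.05 against 3.91% of genes. These were FOS (log2 fold change 1.27, adjusted p = 0.402), FOSB (1.28, 0.997), JUN (0.31, 0.520) and JUNB (0.49, 0.997), and DESeq2 called 0 of them. Spike-in scaling called FOS (1.495, adjusted p = 2.73e-04) and FOSB (1.48, 0.0248) in this step. Spike-in RNAs took 1.73% of the counts in 10 min replicate 1 and 2.36%, the highest share, in 10 min replicate 2. Leaving low counts unfiltered called FOS (1.27, adjusted p = 1.78e-07), FOSB (1.28, 0.00144) and JUN (0.30, 0.00581). Over all 5 times together 7 of the 8 members differed, every one but JUND (adjusted p = 0.295), against 38.3% of genes. Replicates did not overlap for 5 members from 10 to 30 min, against 32.2% of genes, and for 5 from 30 to 240 min, against 65.9%.

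Levels were compared between genes as TPM, which is per transcript length. At 0 min the order was JUND (140.2 ± 8.33 TPM, SD, n = 2), JUN (35.0 ± 1.13), FOSL2 (22.7 ± 1.48), ATF3 (12.8 ± 1.41), FOSL1 (10.1 ± 0.036), JUNB (7.43 ± 0.865), FOS (2.10 ± 1.12) and FOSB (0.618 ± 0.248), and the replicates of no neighbours overlapped. JUND mRNA thus exceeded the sum of the other 7 levels before insulin. At 240 min the order was JUND (136.2 ± 3.31 TPM), JUN (74.2 ± 0.333), ATF3 (25.4 ± 1.27), FOSL1 (19.4 ± 1.32), FOSL2 (18.1 ± 1.66), JUNB (12.1 ± 2.40), FOS (5.02 ± 0.545) and FOSB (1.89 ± 1.18), where FOSL1 and FOSL2 overlapped. ATF3 and FOSL1 also overlapped at 5 and 30 min, and FOSL1 and JUNB at 30 min. FOS and FOSB remained the lowest of the 8 at every time, also where their fold changes were the largest.

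Within the FOS family the summed level went from 35.6 ± 0.0775 TPM at 0 min to 41.8 ± 4.26 at 30 min and 44.4 ± 1.25 at 240 min (SD, n = 2). FOSL2 made up 61.0% and 66.7% of that sum before insulin and 38.8% and 42.5% after 240 min. FOSL1 supplied 28.6% and 28.4% before insulin and 42.5% and 45.0% after 240 min. The share of FOS was 8.14% and 3.68% before insulin, 13.1% and 11.3% after 30 min and 12.4% and 10.2% after 240 min. The replicates of these shares did not overlap between 0 and 240 min. In the JUN family the sum went from 182.6 ± 6.34 to 222.4 ± 0.575 TPM, the JUN share went from 18.3% and 20.1% to 33.2% and 33.5%, and JUND went from 78.1% and 75.4% to 62.2% and 60.3%. These are mRNA shares, and protein was not measured.

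**Figure D3:**
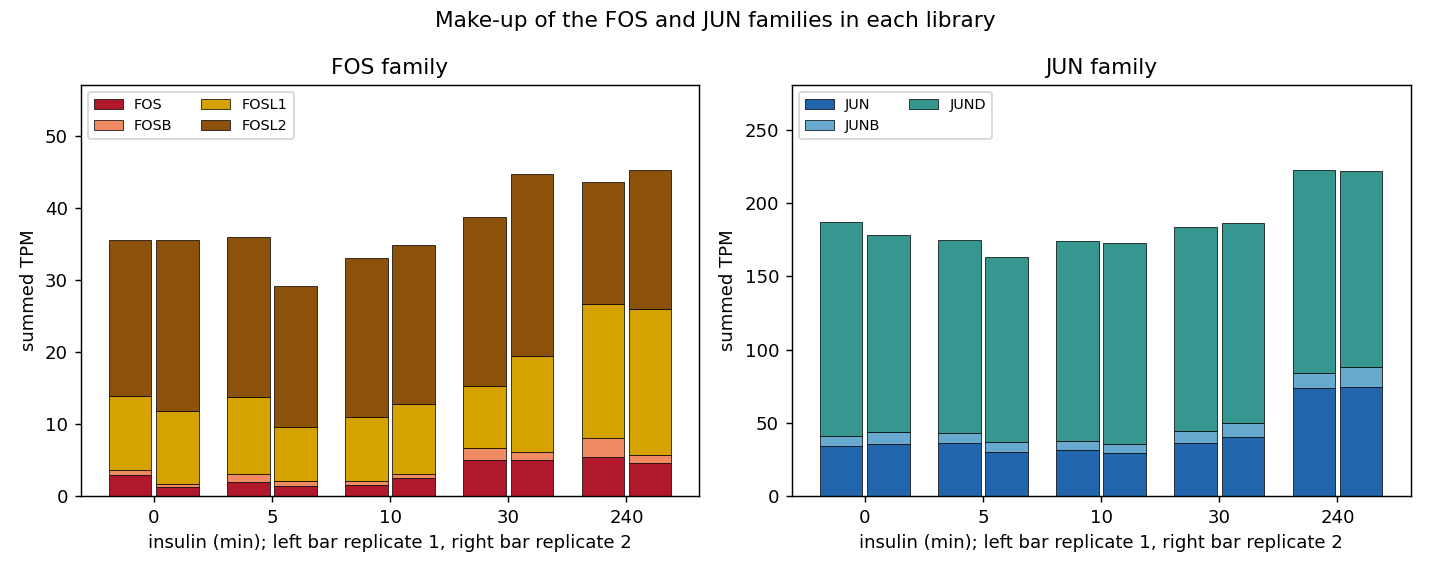
Summed TPM (vertical axis, from 0) of the FOS family (left) and the JUN family (right) in each library, stacked by gene, with replicate 1 as the left and replicate 2 as the right bar of each time. FOSL2 fills most of the FOS family bars until 30 min and FOSL1 reaches a like height at 240 min (19.4 against 18.1 TPM), while JUN grows in the JUN family bars from 35.0 to 74.2 TPM and JUND keeps its height.

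The time courses of the members were compared by the root-mean-square difference of log2 CPM, each gene centred on its own mean over the 10 libraries, with 10388 tested genes of at least 5 CPM as candidates. This is a description of likeness over libraries that share depth and handling, with no test. JUN and ATF3 were each other's nearest gene of all candidates, at 0.110. FOSL1 was nearest to B3GNT9, a glycosyltransferase gene (0.130), and then to ATF3 (0.136) and HES1, a Notch target (0.153). After ATF3, JUN was nearest to LCMT2 (0.120) and MAT2A, which makes S-adenosylmethionine (0.124), and after JUN, ATF3 was nearest to STC2 (0.112) and THBS1, a matricellular protein gene (0.119). JUNB lay nearest to GBP1, an interferon-induced GTPase gene (0.094), CYR61, a matricellular immediate early gene (0.138), and C4orf32 (0.139). For FOSL2 the nearest were INPP5D and MXRA8 (0.044 each) and RECQL5 (0.050), which were lower at 240 min by 0.40, 0.36 and 0.32 on the log2 scale. FOS and FOSB had no candidate that close: EGR1, a zinc finger immediate early gene, came nearest to both (0.422 and 0.448), followed by FOXC1 (0.508 and 0.505), then HES1 for FOS (0.535) and C12orf66 for FOSB (0.513). With means of 2.8 and 1.6 CPM, FOS and FOSB were not candidates themselves, and they lay 0.503 from each other. How far their low counts widen these distances was not tested.

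The other genes of the pathway were counted from lists set by function. None of the listed genes passed at 5 or 10 min. Of 9 tested dimer partners outside the 8 members, 0 rose and 3 fell at 240 min, against 20.6% and 20.4% of all genes, with a list median of -0.18 on the log2 scale against -0.003 for all genes. They were ATF7 (log2 fold change -0.39, adjusted p = 2.55e-05), CREB5 (-0.33, 0.0455) and ATF2, the JUN partner at TGACGTCA sites (-0.29, 2.85e-04). Of 18 tested kinases and factors known to act upstream of AP-1 genes, 3 rose and 8 fell (median -0.081), beside the same shares of all genes. SRF, the serum response factor, rose from 73.7 ± 0.153 to 91.6 ± 3.95 CPM (SD, n = 2, log2 fold change 0.32, adjusted p = 6.08e-05), and ELK4 and MAPK9, named after their values were seen, also rose (0.18 and 0.20). MAP2K7, the kinase of JNK, fell by 0.34, the SRF coactivator MKL1 by 0.32 and ELK3 by 0.26, each past the threshold with edgeR.

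Among other immediate early genes, 5 of 10 rose at 240 min and 0 fell, against 20.6% and 20.4% of all genes, with a median of 0.70. EGR1 rose from 23.1 ± 3.76 CPM at 0 min to 40.9 ± 9.27 CPM at 30 min (SD, n = 2, 0.86 on the log2 scale, adjusted p = 8.55e-04, edgeR). At 240 min it stood at 53.2 ± 5.20 CPM (1.22, adjusted p = 1.25e-07, edgeR). EGR1 was the single gene of that list called at 30 min. EGR3 (1.46 from 0.805 CPM), NR4A1, an orphan nuclear receptor gene (0.88), ZFP36, whose protein destabilizes AU-rich mRNAs (0.86), and BTG2, named after its value was seen (0.53), rose at 240 min as well. Of 12 tested genes known as AP-1 targets, 4 rose and 2 fell at 240 min, with a median of -0.011, and these counts are near the 20.6% higher and 20.4% lower of all genes. CXCL8, a chemokine, rose by 1.67 on the log2 scale (adjusted p = 9.03e-09), HMOX1, the heme oxygenase, by 0.87 (4.57e-07), and CCND1 and EZR, named after their values were seen, by 0.34 and 0.22. TIMP1, a metalloproteinase inhibitor, fell by 0.40. These lists are described by counts and medians, with no test of the list.

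**Figure D4:**
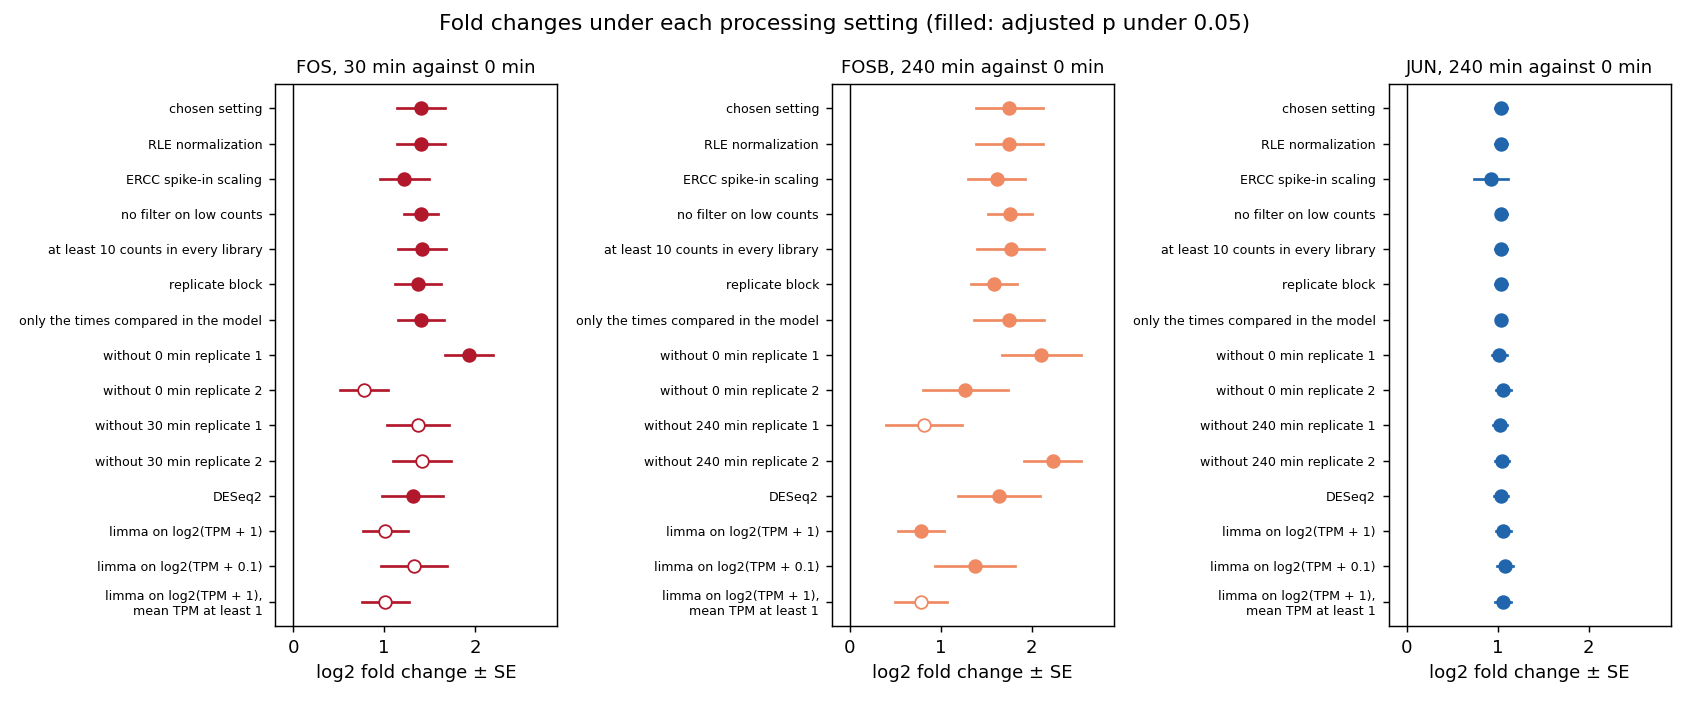
Log2 fold change with its standard error (horizontal axis) of FOS at 30 min, FOSB at 240 min and JUN at 240 min, each against 0 min, under every processing setting tried, with filled points where the adjusted p was under 0.05. FOS ranges from 0.78 to 1.94 and is open in 6 settings, FOSB ranges from 0.78 to 2.23 and is open in 2, and JUN stays filled.

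IR peaks were set beside the members, since the series holds both assays from this cell line. The table lists 1971 peaks of 1 library on hg19, with no replicate. A peak lay within 5 kb of the gene body for 1 of the 8 members, JUND, and for 9.71% of all genes in the StringTie tables. HOMER annotated that peak as lying in the promoter of JUND, although the nearest start by HOMER's measure is that of MIR3188. Its score of 60 ranked 1183 among the 1971 peaks, under the median of 79. With only peaks above the median score, or with HOMER's nearest gene, 0 members had a peak, and with 20 kb in place of 5 kb 3 had one. The peaks nearest to the starts of the other members lay at 17.2 kb for FOSB, 18.3 kb for FOSL1, 146.9 kb for JUNB, 226.5 kb for ATF3, 237.3 kb for JUN, 501.4 kb for FOSL2 and 1820 kb for FOS. A count of 1 in 8 is near the share of all genes, so it says nothing particular about the members.

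The members also differ in gene structure, read from GENCODE canonical transcripts on GRCh37. JUN, JUNB and JUND have 1 exon, as do 4.69% of 17958 counted protein-coding genes, and the other 5 members have 4. The pentamer ATTTA, the core of AU-rich elements that mark short-lived mRNAs, was counted in the 3′ UTR after the expression values were seen. FOS had 5 copies in 809 bases, FOSL2 9 in 4872, FOSB 3 in 2170, JUN 3 in 1287, ATF3 3 in 1223, JUNB 2 in 503, FOSL1 1 in 840 and JUND 1 in 750. Thus 5 of the 8 had at least 3 copies, against 42.0% of the 17958 transcripts. Per kilobase FOS had the most (6.18, with a median of 1.52 over all) and FOSL1 the fewest (1.19).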

How the data were processed

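RNA was sequenced in 10 HepG2 libraries, and IR ChIP-seq in 1. For the RNA the authors trimmed reads with Trim Galore 0.6.4, aligned them to hg19 with STAR 2.6.1d and counted them by strand per gene with featureCounts 1.6.4, and they deposited these raw counts. Per the labels, RNA and ChIP libraries carry each other's extraction text, and the paper's methods were followed. The authors also deposited TPM values per gene from StringTie, which were used for levels between genes. The IR peaks, with a score for each, were deposited from BWA 0.7.17-r1188, MACS2 2.2.7.1 and HOMER. The input library was not used here.

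Counts of all 10 libraries were fitted in 1 model with edgeR 4.0.16 in R 4.3.3 (TMM, filterByExpr, quasi-likelihood test, two-sided). The 92 spike-in rows, 1.59% to 2.36% of counts, were left out of both library sizes and tests. An adjusted p under 0.05 over 13852 genes was a call, and the script was tested on simulated data. DESeq2 1.42.0 and limma 3.58.1 were alternatives. CPM divides counts by TMM-normalized library sizes, and log2 CPM for likeness used a prior count of 2. Differences between replicates exceeded counting noise at every time (chi-square per degree of freedom 2.86 to 6.47).

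The members and lists were chosen with earlier results of these data known. The naming rule covered all 8 members, from each list at most the 4 largest changes past the threshold, the 3 genes nearest each member that differed, and the nearest IR peaks. Outside that rule, ELK4, MAPK9, BTG2, CCND1 and EZR were named after their values were seen, as was COL1A1 beside PDGFRB. Listed genes that were not tested are named as such. TGACATCA and ATTTA were added after sequences and values were seen. Among the listed genes and the peak sequences, 1 gene and 1 sequence are not reported here.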

Additional observations from a re-analysis of the deposited data

How the results depend on the processing

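None of the 13 called fold changes of members reversed under 182 alternative values, and 16 of these values lost the threshold. FOS at 30 min is the least stable. The number of members called at 30 min against 0 min was 2 with no filter on low counts, 0 with each of the 3 limma fits, and 0 to 1 with 1 replicate left out (0 without 0 min replicate 2, 30 min replicate 1 or 30 min replicate 2). At 30 against 10 min it was 2 with spike-in scaling and 3 with no filter, and at 240 against 30 min 3 with spike-in scaling in place of 5. IR peaks were found at 3 members with 20 kb, 0 with scores above the median and 0 with HOMER's nearest gene. The cause of each change was not tested. The first 2 of these alternatives widen or narrow what counts as near or as a peak.

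Spike-in scaling moved the median of all genes by -0.083, -0.326, -0.134 and -0.119 at 5, 10, 30 and 240 min against 0 min, by 0.195 at 30 against 10 min and by 0.013 at 240 against 30 min. It reversed FOS at 10 min (-0.28) and FOSL1 (-0.10), FOSL2 (-0.049) and JUN (-0.026) at 30 min, and JUND at 30 against 10 min (0.19), where the 3 limma fits also gave 0.009. None of these was called. The highest spike-in share, 2.36%, was that of 10 min replicate 2, against 1.73% in 10 min replicate 1. The part of that library in the shifts of the median was not tested.

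With 1 replicate left out, uncalled changes crossed 0. At 5 min the ranges were -0.77 to 0.38 for FOS, -0.42 to 0.046 for FOSL1, -0.23 to 0.01 for JUN and -0.14 to 0.075 for JUNB. At 10 min they were -0.49 to 0.66 for FOS, -0.51 to 0.33 for FOSB, -0.077 to 0.03 for FOSL2 and -0.10 to 0.038 for JUND. At 30 min they were -0.26 to 0.30 for FOSL1, -0.11 to 0.029 for JUND and -0.22 to 0.071 for ATF3. At 30 against 10 min they were -0.14 to 0.41 for FOSL1 and -0.041 to 0.02 for JUND, and at 240 against 30 min -0.18 to 0.089 for FOS, -0.44 to 0.98 for FOSB and -0.083 to 0.001 for JUND. A lone remaining replicate is assumed to vary like the other groups.

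Same-numbered replicates did not deviate together (correlations -0.115 to 0.133, above 0.1 in 2 of 10 pairs of times), so the numbers were not taken as pairs. With the replicate block the FOS change at 30 min was 1.38 (adjusted p = 0.0163) and the numbers of members called were as without it. Depth limits FOSB most, with 17 to 102 counts.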

Other observations

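Stress genes known to rise together with ATF3 were listed apart. Of 7 tested genes of the integrated stress response, in which ATF4 drives ATF3, 2 rose and 1 fell at 240 min, and the list median was 0.043 on the log2 scale against -0.003 for all genes. DDIT4, an inhibitor of mTORC1, rose from 11.4 ± 1.15 to 21.2 ± 0.420 CPM (SD, n = 2, log2 fold change 0.91, adjusted p = 2.51e-07, edgeR), and TRIB3, a pseudokinase that restrains AKT, from 77.8 ± 9.48 to 121 ± 7.91 CPM (0.64, 4.94e-06). SESN2, a leucine sensor, fell from 21.7 ± 1.08 to 15.3 ± 0.0299 CPM (-0.51, 1.91e-04). Of 5 tested heat shock genes 0 rose and 3 fell at 240 min, with a median of -0.23. HSPH1, a co-chaperone, went from 280 ± 0.382 to 199 ± 12.1 CPM (-0.50, 2.51e-06). HSPA1A (-0.68, 8.58e-07) and HSPA1B (-0.23, 0.00469) are near-identical copies between which reads may be split, so each value is uncertain. At that time 20.6% of all genes were higher and 20.4% lower. Among all these genes none passed at 5, 10 or 30 min. Members of the lists that did not pass the filter on low counts were not tested: BATF3, MAPK10, MMP1, MMP9, IL6, CD44, GSTP1, CHAC1 and HSPA6.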
